A study of Mus musculus with 14 samples.

Results

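Binding of 7 transcription factors (TFs) was examined at the genes of 3 GATA factors, Gata1, Gata2 and Gata3, and at Zfpm1. A peak was assigned to a locus when it overlapped, by at least 1 bp, the RefSeq span of the gene (mouse build GRCm38) extended by 80 kb on each side for Gata2 and by 30 kb for the other loci. By this rule 98 of the 158488 peaks in the 14 lists fell at these 4 loci, out of 21774 protein-coding genes on the assembled chromosomes. The loci held 7 peaks (Gata1), 32 peaks (Gata2), 13 peaks (Gata3) and 46 peaks (Zfpm1).

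GATA factors are zinc finger proteins that recognize DNA with the letters GATA at its core. GATA2 acts in hematopoietic stem and progenitor cells, GATA1 drives erythroid and megakaryocytic differentiation, and GATA3 acts in T cells. Zfpm1 encodes FOG1, which acts without contacting DNA itself and binds the amino-terminal finger of GATA1 and is required for many of its actions in red cells and megakaryocytes. In progenitors GATA2 can occupy its own gene and that of GATA1, and GATA1 later replaces GATA2 at many sites, an exchange in which FOG1 takes part.

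The lists came from chromatin immunoprecipitation sequencing (ChIP-seq) of cells differentiated in culture from a mouse embryonic stem (ES) cell line of strain 129 with a GFP reporter in the Brachyury gene, and each list was made with 1 antibody at 1 of 5 stages. Mesoderm (MES) was Bry.GFP+ and FLK1-, and was profiled for C/EBPβ and ELK4. Hemangioblasts (HB), the shared precursors of blood and endothelium, were Bry.GFP+ and FLK1+, and were profiled for C/EBPβ and GATA2. Hemogenic endothelium (HE) was Bry.GFP+, Tie2+, cKit+ and CD41-, and was profiled for C/EBPβ with mRNA and histone H2B added as carriers. Hematopoietic progenitors (HP) were CD41+ and were profiled for C/EBPβ, GATA1, GATA2, GFI1B, RUNX1 and PU.1. Macrophages (MAC) were CD11b+ and were profiled for C/EBPβ, RUNX1 and PU.1. CD41 also marks cells of the megakaryocytic lineage, so that HP were not restricted to 1 lineage by this marker. The labels name no other genetic change, and all stages came from cultures of ES cells and none from an embryo. Every group held 1 list without a replicate, and no test was run. The lists hold positions of peaks and no expression, and the sort markers could not be checked in them.

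List lengths differed widely, from 72 peaks (RUNX1 in MAC) to 82866 peaks (PU.1 in MAC). Each count is therefore given beside the share of all coding genes whose span, extended by the same distance, held a peak of that list. A peak absent from a list did not pass the threshold of that list, and absence of binding cannot be read from it. Peaks carry no height. GATA1 in HP had 250 peaks and GATA2 had 530 peaks in HP and 97 peaks in HB.

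Of the 5 Zfpm1 regions with a GATA1 or GATA2 peak in HP, which held all of the HP GATA peaks found at the 4 loci, 4 are printed first. Each sequence is 300 bp around the mean center of the GATA peaks of the region, on the plus strand of GRCm38 (RefSeq), 5′ to 3′, with distances measured from the transcription start site (TSS). Capitals mark the GATA consensus, that is GATAA or GATAG, each with an A or a T before it, on either strand. On the minus strand the core reads as TATC in the printed letters. None of these windows contained a base of an exon.
Zfpm1 +0.76 kb, intron 1, GATA2, chr8:122282750-122283049: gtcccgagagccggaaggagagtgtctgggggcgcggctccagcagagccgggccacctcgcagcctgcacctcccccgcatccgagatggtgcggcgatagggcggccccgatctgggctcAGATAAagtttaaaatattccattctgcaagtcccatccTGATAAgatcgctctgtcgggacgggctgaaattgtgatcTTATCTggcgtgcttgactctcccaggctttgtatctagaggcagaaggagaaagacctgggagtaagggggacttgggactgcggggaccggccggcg
Zfpm1 +27.37 kb, intron 3, GATA1 and GATA2, chr8:122309359-122309658: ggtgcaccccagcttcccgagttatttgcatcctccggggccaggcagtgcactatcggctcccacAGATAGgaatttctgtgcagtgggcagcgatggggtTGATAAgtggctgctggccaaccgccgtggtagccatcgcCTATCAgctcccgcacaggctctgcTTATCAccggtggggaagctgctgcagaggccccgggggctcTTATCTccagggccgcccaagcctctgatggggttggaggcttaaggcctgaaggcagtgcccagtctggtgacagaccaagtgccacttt
Zfpm1 +31.40 kb, intron 3, GATA1, GATA2 and GFI1B, chr8:122313389-122313688: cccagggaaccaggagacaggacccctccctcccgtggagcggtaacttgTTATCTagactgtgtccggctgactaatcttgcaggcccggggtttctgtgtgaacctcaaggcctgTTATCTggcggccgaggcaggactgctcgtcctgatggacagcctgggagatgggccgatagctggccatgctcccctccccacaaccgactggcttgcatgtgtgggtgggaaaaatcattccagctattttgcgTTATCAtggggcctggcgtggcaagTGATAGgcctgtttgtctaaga
Zfpm1 +39.71 kb, intron 3, GATA1, chr8:122321704-122322003: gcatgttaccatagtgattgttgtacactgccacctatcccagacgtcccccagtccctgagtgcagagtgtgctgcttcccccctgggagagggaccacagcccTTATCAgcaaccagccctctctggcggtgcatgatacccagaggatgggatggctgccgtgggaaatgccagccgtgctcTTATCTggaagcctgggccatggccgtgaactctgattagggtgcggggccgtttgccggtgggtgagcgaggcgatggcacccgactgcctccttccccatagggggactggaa

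At Gata2 the sequences of the upstream regions with peaks at the early stages are shown, selected after their positions were known. The first holds the only GATA2 peak found at Gata1, Gata2 or Gata3, with the GATA consensus in capitals. The second holds C/EBPβ at 4 stages, and its capitals mark the C/EBP consensus TTGCNNAA, where N is any base, on either strand.
Gata2 upstream, GATA2 in HB, chr6:88116846-88117145: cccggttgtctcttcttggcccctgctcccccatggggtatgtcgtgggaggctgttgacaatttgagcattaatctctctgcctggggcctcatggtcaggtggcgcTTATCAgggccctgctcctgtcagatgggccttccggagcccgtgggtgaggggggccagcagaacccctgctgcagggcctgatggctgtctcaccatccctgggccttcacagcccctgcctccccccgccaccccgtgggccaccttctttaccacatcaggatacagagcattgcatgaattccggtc
Gata2 upstream, C/EBPβ in MES, HB, HP and MAC and PU.1 in MAC, chr6:88136197-88136496: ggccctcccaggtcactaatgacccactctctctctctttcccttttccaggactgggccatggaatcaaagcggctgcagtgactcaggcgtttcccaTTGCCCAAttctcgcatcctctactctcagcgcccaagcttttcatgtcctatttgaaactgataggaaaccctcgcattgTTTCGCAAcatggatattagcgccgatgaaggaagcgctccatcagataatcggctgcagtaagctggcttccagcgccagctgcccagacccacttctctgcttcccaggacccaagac

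Zfpm1 was the locus with the most peaks. Its span, chr8:122281856-122337862 on the plus strand, and the 30 kb flanks held 46 peaks of 7 lists. HP GATA1 and HP GATA2 each had 4 peaks here, HP PU.1 had 5, HP GFI1B 2, HP RUNX1 1, MAC C/EBPβ 8 and MAC PU.1 22. Among all coding genes a peak within the same extension was found for 2.23% with HP GATA1, 4.19% with HP GATA2, 44.1% with HP PU.1, 14.4% with HP GFI1B, 9.43% with HP RUNX1, 77.3% with MAC C/EBPβ and 81.3% with MAC PU.1. At least 7 lists were present at 2.72% of coding genes. For PU.1, a myeloid and B cell factor, 1.63% of coding genes had 5 or more peaks in HP and 1.94% had 22 or more in MAC. Counted per length of the extended span, 2.97% and 3.21% had as many, since the Zfpm1 window of 116 kb is long.

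The GATA counts at Zfpm1 stood far above those of nearly all genes. At least 4 HP GATA1 peaks were found at 0.00919% of coding genes, which were 2 genes, Zfpm1 and Gse1. At least 4 HP GATA2 peaks were found at 0.0138%, which were 3 genes, Zfpm1, Gse1 and Cbfa2t3. Cbfa2t3 encodes ETO2, a corepressor that is found in complexes with GATA1 and TAL1. It had 3 HP GATA1 peaks beside its 4 HP GATA2 peaks, and Gse1 had 4 of each. According to the methods of the study an element of Zfpm1 served as a control region for GATA1 immunoprecipitation in HP, and peak thresholds were chosen by eye at known genes. The part that these choices have in the count was not tested.

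**Figure D1:**
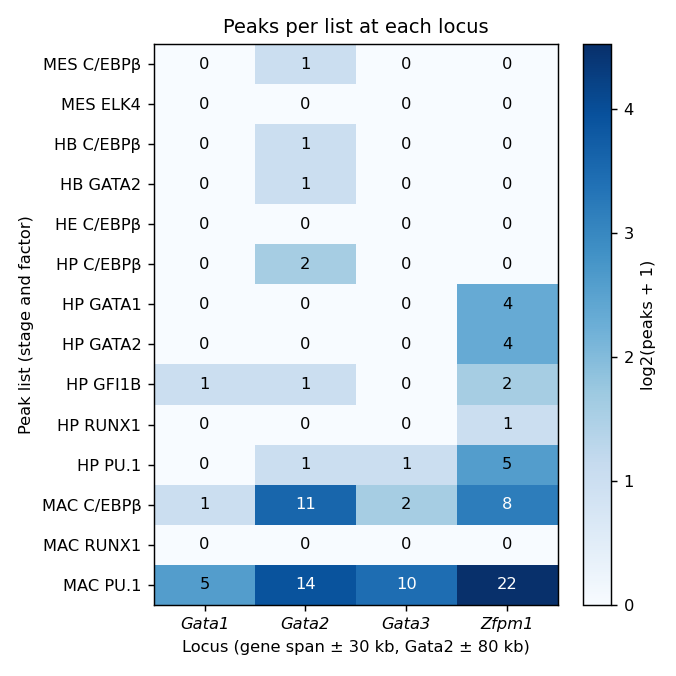
Number of peaks of each list (vertical axis) at each locus (horizontal axis), printed in the cell and shaded by log2(peaks + 1). HP GATA1 and HP GATA2 had 4 peaks each at Zfpm1 and 0 at Gata1, Gata2 and Gata3.

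Zfpm1, Gse1 and Cbfa2t3 all lie on chromosome 8, and the lists were not spread evenly over chromosomes. Chromosome 8 held 14.4% of the HP GATA1 peaks, 11.1% of the HP GATA2 peaks and 16.5% of the HB GATA2 peaks, against 4.75% of the assembled length and 4.79% of the coding genes. The excess was not particular to the GATA lists. MAC RUNX1 had 12.5% of its peaks there, HP RUNX1 10.3%, HB C/EBPβ 10.1% and MES C/EBPβ 9.52%. MES ELK4 had 9.35%, HP GFI1B 8.42%, HP PU.1 7.19%, HP C/EBPβ 6.55%, MAC PU.1 6.01% and MAC C/EBPβ 5.89%. Only HE C/EBPβ, with 2.27%, was lower than the share of length. Within the 1043 coding genes of chromosome 8, an HP GATA1 peak was found at 4.79% and an HP GATA2 peak at 7.57%, and 2 and 3 genes respectively had at least 4. For PU.1, 3.84% of these genes had 5 or more peaks in HP and 3.45% had 22 or more in MAC. The part that this uneven spread has in the counts at Zfpm1 was not tested.

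All 8 HP GATA peaks of Zfpm1 lay in introns, and none lay upstream of the TSS. The first region, at +0.76 kb in intron 1, was held by GATA2 only. In intron 3 both had peaks at +27.37 kb, with centers 50 bp apart, and at +31.40 kb, with centers 41 bp apart. The last region, at +39.85 kb in intron 3, was held by GATA1 only among the HP lists. In all, 3 of the 4 GATA1 peaks overlapped a GATA2 peak and 3 of the 4 GATA2 peaks overlapped a GATA1 peak. Over the whole lists these shares were 41.6% (95% Clopper-Pearson interval 35.4 to 48.0) of GATA1 peaks and 19.6% (16.3 to 23.3) of GATA2 peaks. With 4 peaks in each list, a difference from these shares cannot be read.

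GFI1B, a zinc finger repressor of the erythroid and megakaryocytic lineages, met the GATA factors at a single Zfpm1 region. Its peak at +31.42 kb was centered 1 bp from that of GATA2 and 42 bp from that of GATA1. In the whole lists 36.8% of GATA1 peaks and 22.8% of GATA2 peaks overlapped GFI1B. A second GFI1B peak lay in the same intron, in a region of 4 lists at +32.95 kb, chr8:122314872-122315319, which also held RUNX1 and PU.1 in HP and PU.1 in MAC. RUNX1 is required for the formation of the first blood cells from hemogenic endothelium. Regions with 4 or more lists made up 1.09% of the 117293 merged regions of the genome. The centers of the GATA2 and RUNX1 peaks of these neighboring regions were 1515 bp apart. Both regions had GFI1B, but among the HP lists GATA1 and GATA2 were listed only at the first and RUNX1 and PU.1 only at the second. None of the 4 GATA1 and none of the 4 GATA2 peaks of Zfpm1 overlapped RUNX1, against 27.2% (21.8 to 33.2) of all GATA1 peaks and 17.0% (13.9 to 20.5) of all GATA2 peaks, and 4 peaks are too few to read a difference.

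**Figure D2:**
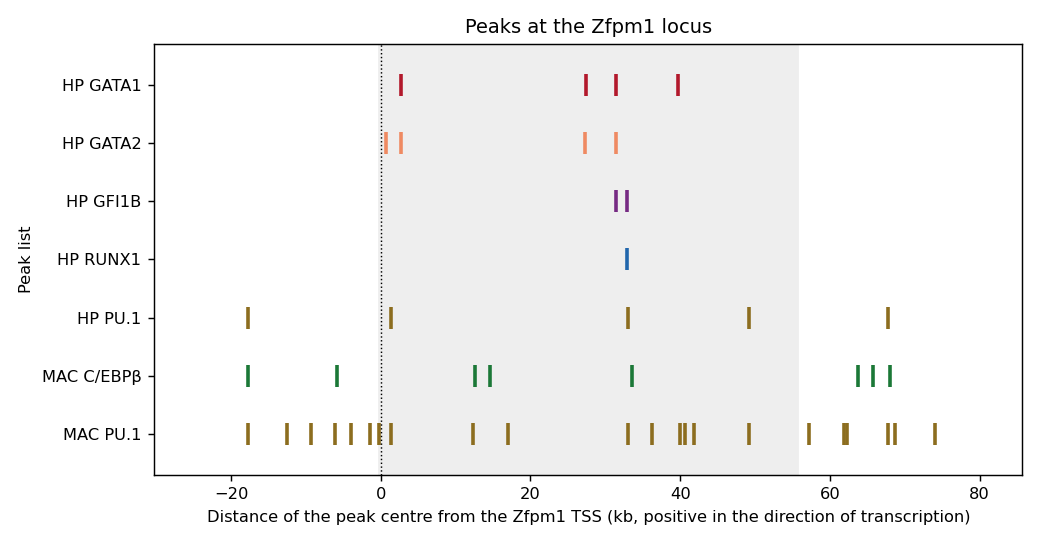
Peak centers at the Zfpm1 locus by list (vertical axis) against distance from the TSS in kb (horizontal axis, positive in the direction of transcription), with the gene span in gray and the TSS as a dotted line. GATA1 and GATA2 peaks lie between +0.76 and +39.71 kb inside the gene, whereas PU.1 peaks also lie on both flanks.

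None of the 4 GATA1 and none of the 4 GATA2 peaks overlapped an HP PU.1 peak, against 15.6% (11.3 to 20.7) of all GATA1 peaks and 19.8% (16.5 to 23.5) of all GATA2 peaks. The closest pair of GATA and PU.1 peaks was 612 bp apart, between the GATA2 peak at +0.76 kb and the PU.1 peak at +1.37 kb. The HP PU.1 peaks of the locus lay 17.73 kb upstream of the TSS and at +1.37, +32.96, +49.26 and +67.72 kb. The outermost were in regions of 3 lists, shared with PU.1 and C/EBPβ in MAC, at 17.72 kb upstream in exon 3 of the neighboring Zfp469 and at +67.86 kb in intergenic DNA. Regions with at least 3 lists made up 5.44% of all merged regions. HP C/EBPβ, found at 17.9% of coding genes at this extension, had 0 peaks here. The early lists had 0 peaks here as well, and the corresponding shares of coding genes were 7.83% for MES C/EBPβ, 5.75% for MES ELK4, 5.14% for HB C/EBPβ, 0.423% for HB GATA2 and 0.85% for HE C/EBPβ. MAC RUNX1, with 0.602%, had none either.

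Of the 5 GATA regions, only that at +39.85 kb held a MAC peak, where a MAC PU.1 peak overlapped the GATA1 peak by 117 bp. Accordingly 1 of 4 GATA1 peaks and 0 of 4 GATA2 peaks overlapped MAC PU.1 or MAC C/EBPβ. Over the whole lists 45.2% (38.9 to 51.6) of GATA1 peaks and 55.1% (50.7 to 59.4) of GATA2 peaks did so, and with 4 peaks in each list no difference from these shares can be read.

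The letters recognized by GATA factors were present in each of the 6 HP GATA peaks in the Zfpm1 regions printed above. The numbers of matches were 5, 4 and 2 in the GATA1 peaks at +27.39, +31.38 and +39.71 kb. They were 3, 5 and 5 in the GATA2 peaks at +0.76, +27.34 and +31.42 kb. In the whole lists 90.4% (86.1 to 93.8) of GATA1 peaks and 83.4% (79.9 to 86.5) of GATA2 peaks had a match, but so did 60.7% of all 400 bp windows of the genome, so that a single match carries little information. Windows with at least 4 matches made up 2.74% of the genome, and 10.4% of GATA1 peaks and 6.98% of GATA2 peaks had as many. Among the 6 Zfpm1 peaks these were 2 of 3 GATA1 and 2 of 3 GATA2 peaks. The peaks of both factors lay on the same DNA, in the regions at +27.37 and +31.40 kb. The same letters are thus counted once for each factor, and the peaks are not independent. The single sequence AGATAA, found in 25.0% of windows, 64.0% of GATA1 peaks and 57.9% of GATA2 peaks, was also present in all 6.

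The nearest match was 5, 10 and 38 bp from the center of the GATA1 peaks, in the order above, and 14, 20 and 51 bp from that of the GATA2 peaks. A match describes the letters and does not show that a factor bound them. GFI1B's consensus AATCNNNGC, found in 44.9% of HP GFI1B peaks and 13.4% of windows, was in neither of the GFI1B peaks of Zfpm1. The RUNX1 peak had the RUNX letters TGTGGT (47.1% of the list, 25.7% of windows) 158 bp from its center.

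**Figure D3:**
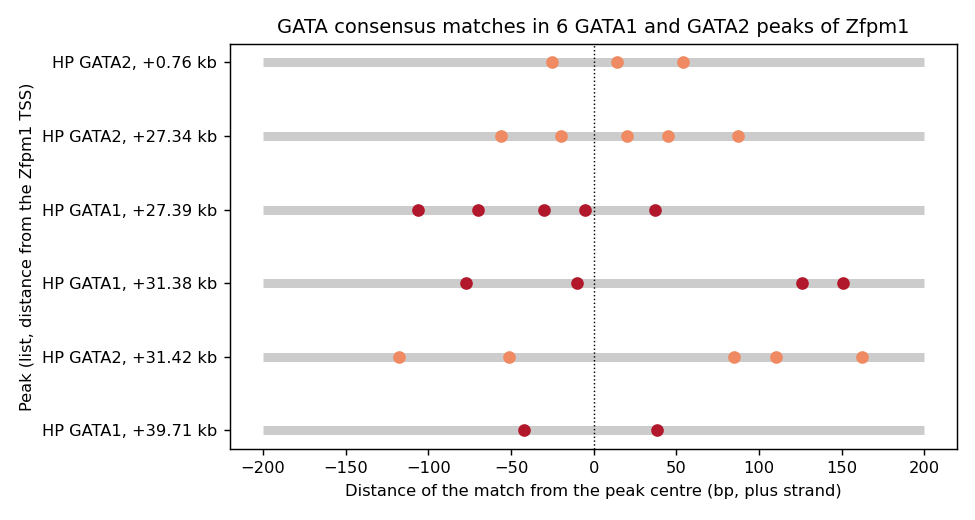
Positions of GATA consensus matches (dots) in 6 GATA1 and GATA2 peaks of Zfpm1 in HP (gray bars of 400 bp, vertical axis) against distance from the peak center in bp (horizontal axis). Each peak holds 2 to 5 matches, and the nearest match lies 5 to 51 bp from the center.

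The loci of the GATA factors themselves contrasted with Zfpm1. HP GATA1 and HP GATA2 had 0 peaks at Gata1, Gata2 and Gata3. For Gata2, with its 80 kb extension, the share of coding genes with a peak was 4.36% for HP GATA1 and 8.0% for HP GATA2, so that 0 at a given gene was the usual outcome. Counts stayed at 0 when all loci were extended by 80 kb or when peaks were assigned to the nearest TSS. The closest HP GATA2 peak to the Gata2 TSS was 651.7 kb away and the closest HP GATA1 peak 3310.5 kb away. The known positions of GATA2 binding within and around its own gene therefore did not appear in the HP lists. Whether peaks there were weaker than the threshold or absent cannot be told apart without heights.

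At Gata2, chr6:88193891-88207032 on the plus strand with curated TSSs at 88193891 and 88198664, 32 peaks of 8 lists were found, and 3.94% of coding genes had as many lists at this extension. The wide extension contributed much of this, since with 30 kb the locus had 12 peaks of 3 lists. MES C/EBPβ, HB C/EBPβ, HB GATA2, HP GFI1B and HP PU.1 had 1 peak each, HP C/EBPβ had 2, MAC C/EBPβ had 11 and MAC PU.1 had 14. Shares of coding genes with a peak at 80 kb were 14.4% for MES C/EBPβ, 9.47% for HB C/EBPβ, 0.781% for HB GATA2, 25.3% for HP GFI1B, 62.1% for HP PU.1, 30.5% for HP C/EBPβ, 84.3% for MAC C/EBPβ and 86.5% for MAC PU.1. The lists with 0 peaks here were MES ELK4 (10.1%), HE C/EBPβ (1.73%), HP RUNX1 (16.6%) and MAC RUNX1 (1.18%), beside HP GATA1 and HP GATA2. MAC PU.1 and MAC C/EBPβ counts were ordinary, as 39.7% and 28.2% of coding genes had as many.

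Of the HB and HP stages profiled for GATA2, the HB list alone had a peak at the Gata2 locus. The peak counts only with the extension of 80 kb, since the HB list had 0 with 30 kb and by the nearest coding TSS. The thresholds of the HB and HP lists were chosen separately, with a looser one for HB, and their part in this difference was not tested. The study gave an enrichment at a control region for GATA2 immunoprecipitation in HP but none for HB. The peak, chr6:88116796-88117195, lay 76.89 kb upstream of the TSS in intergenic DNA, and the nearest coding TSS was that of Rpn1, a subunit of the oligosaccharyltransferase, at 32.52 kb. A distal enhancer of Gata2 active in early hematopoietic cells is known at about this distance upstream. The position of the peak was not compared with that of the enhancer, and binding at it cannot be read from the distance. The peak had 1 GATA match, TTATCA, 39 bp from its center, and no other list had a peak in the region. A match was found in 49.5% (39.2 to 59.8) of the HB GATA2 peaks, below the 60.7% of genome windows, and AGATAA in 15.5% (8.92 to 24.2) against 25.0%. The HB GATA2 list was thus not richer than the genome in the letters of the factor, unlike both HP lists. Of its peaks 6.19% (2.3 to 13.0) overlapped HP GATA2, and the Gata2 peak was not among them.

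C/EBPβ, a bZIP factor of myeloid cells, marked a Gata2 region at 4 of its 5 stages. The region, chr6:88136127-88136606, was 57.52 kb upstream of Gata2 and 51.89 kb from Rpn1, again the nearest coding TSS. It held C/EBPβ in MES, HB, HP and MAC and PU.1 in MAC, and 0.297% of all merged regions had as many as 5 lists. The 4 C/EBPβ centers lay within 43 bp and all 5 centers within 80 bp. The C/EBP letters occurred as TTGCCCAA and TTTCGCAA, shown in the sequence above. From MES to HB, 31.8% of C/EBPβ peaks of the earlier list overlapped the later list, and from MES to HP 47.6%. HE lacked the region, but only 1.87% of MES and 8.39% of HB C/EBPβ peaks were in the HE list, which had 132 peaks. The region also contained TGATAG and AGATAA, without a peak of either GATA factor.

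Remaining peaks at Gata2 came from HP and MAC. GFI1B had a peak at +5.98 kb in intron 2, 1.21 kb from the second TSS, with the letters AATCTGAGC 19.5 bp from its center. C/EBPβ in HP and MAC shared a region at +60.39 kb, which had a C/EBP match 4 bp from the HP center. PU.1 in HP and MAC shared a region at +71.69 kb in intron 6 of the neighboring Eefsec, which encodes the elongation factor for selenocysteine. The promoter, at 0.29 kb upstream of the TSS, had both C/EBPβ and PU.1 in MAC. By the nearest coding TSS only 12 of the 32 peaks belonged to Gata2 itself.

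**Figure D4:**
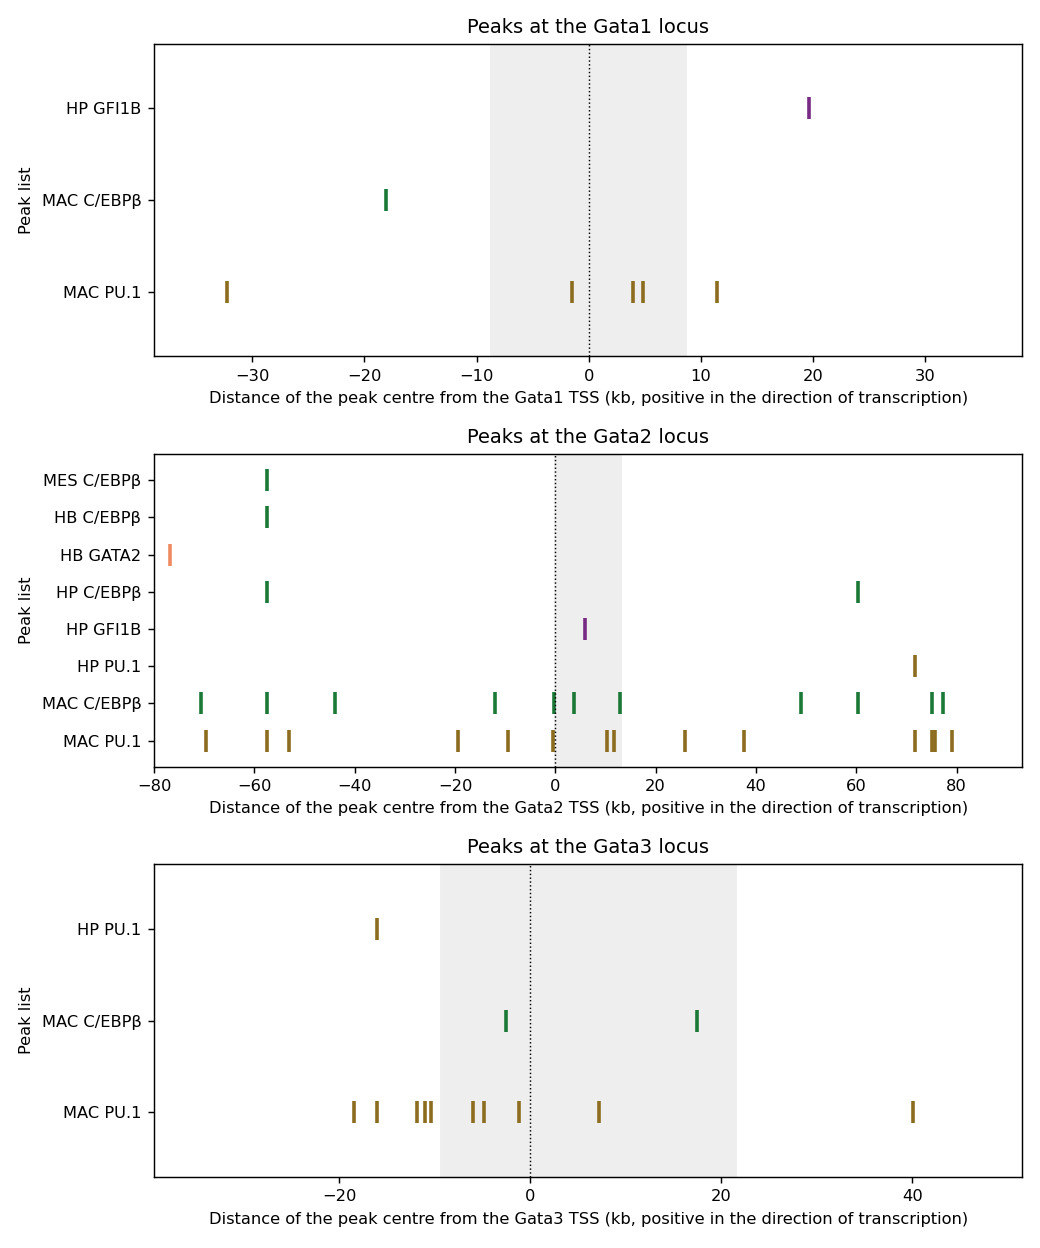
Peak centers at the Gata1, Gata2 and Gata3 loci by list (vertical axes) against distance from each TSS in kb (horizontal axes, positive in the direction of transcription), with gene spans in gray and TSSs as dotted lines. At Gata2 the C/EBPβ peaks of MES, HB, HP and MAC line up 57.52 kb upstream, and the HB GATA2 peak lies 76.89 kb upstream.

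Gata1, chrX:7959260-7976663 on the minus strand, had 7 peaks of 3 lists, and 55.6% of coding genes had as many lists. HP had a single peak, of GFI1B (14.4% of coding genes had a peak), and it lay 19.61 kb downstream of the Gata1 TSS but 0.41 kb from that of Hdac6, a cytoplasmic deacetylase, so that it was a promoter peak of the neighbor. It contained GCAGTGATT, a GFI1B match on the minus strand, and 3 GATA matches 136 to 197 bp from its center. MAC PU.1 had 5 peaks, where 81.3% of coding genes had a peak and 53.9% had as many. MAC C/EBPβ had 1, where 77.3% had a peak. The curated TSS from which distances are measured lay inside the gene span, at 7967910. The PU.1 peak closest to the Gata1 TSS lay 1.49 kb upstream of it, still inside the span. Others lay at +3.91 kb in intron 1 and at +4.82 kb in exon 2. PU.1 and GATA1 are known to oppose each other in blood lineage choice. No Gata1 region was held by more than 1 list.

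The lists contained few peaks on the X chromosome, where Gata1 lies. This chromosome has 6.28% of the assembled length and 4.42% of the coding genes, and it held 3 of the 250 HP GATA1 peaks (1.2%), 3 of the 530 HP GATA2 peaks (0.566%), 0.942% of HP GFI1B, 1.35% of HP PU.1 and 1.58% of MAC PU.1 peaks. The HB GATA2 list, with 8.25%, did not share this. Among the 963 coding genes of the chromosome, 3.22% had an HP GFI1B peak and 52.6% a MAC PU.1 peak within 30 kb. As many as the 5 MAC PU.1 peaks of Gata1 were found at 13.1% of these genes, against 53.9% of all coding genes. The nearest HP GATA1 peak to the Gata1 TSS was 98.22 Mb away. The part of this spread in the counts at Gata1 was not tested.

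Gata3, chr2:9857078-9887953 on the minus strand, had 13 peaks of 3 lists, again no more lists than 55.6% of coding genes. The curated TSS from which distances are measured lay inside this span, at 9878600. MAC PU.1 had 10 peaks, where 81.3% of coding genes had a peak and 21.9% had as many. MAC C/EBPβ had 2, where 77.3% had a peak and 66.6% had as many, and HP PU.1 had 1, where 44.1% had a peak. The HP PU.1 peak lay 16.00 kb upstream of the TSS, was shared with MAC and had GAGGAAGT, the PU.1 consensus, 5 bp from its center. Peaks of MAC PU.1 gathered upstream of the TSS, with 8 of the 10 between 1.15 and 18.43 kb. The nearest of these, to 5.98 kb, were still inside the gene span. All 13 peaks had Gata3 as the nearest coding TSS.

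All 7 HP PU.1 peaks at Gata2, Gata3 and Zfpm1 overlapped a MAC PU.1 peak, as did nearly all peaks of that list (97.0%), and 7 of the 51 MAC PU.1 peaks at the 4 loci overlapped an HP PU.1 peak (12.8% in the whole list). Both HP C/EBPβ peaks also overlapped a MAC C/EBPβ peak (91.4% in the whole list). The single HP RUNX1 peak was not in the MAC RUNX1 list, with which 3.68% of all HP RUNX1 peaks were shared. The PU.1 letters were in 4 of the 7 HP peaks (42.1% of the list) and in 13 of the 51 MAC peaks (24.4%), against 2.43% of genome windows. The C/EBP letters were in both HP C/EBPβ peaks (64.0%) and in 6 of the 22 MAC C/EBPβ peaks (41.9%), against 18.0% of windows.

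Most regions shared between lists lay at Zfpm1. The 98 peaks merged into 73 regions, of which 17 (23.3%) were held in at least 2 lists and 5 (6.85%) in at least 3, close to the 28.0% and 5.44% of all merged regions. By locus, regions in at least 2 lists numbered 0 of 7 at Gata1, 5 of 24 at Gata2, 1 of 12 at Gata3 and 11 of 30 at Zfpm1. Regions in at least 3 lists were found at Zfpm1, with 4, and at Gata2, with 1.

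**Figure D5:**
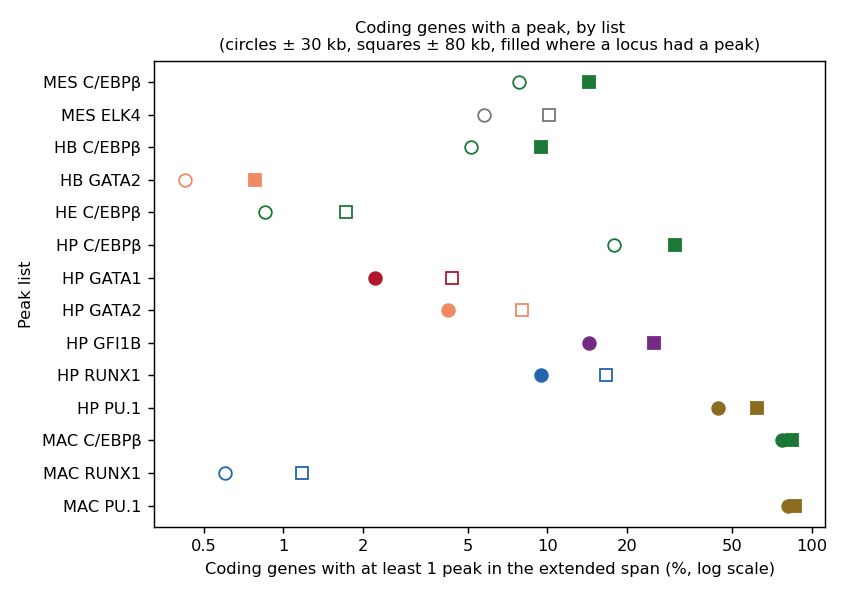
Percentage of the 21774 coding genes with at least 1 peak of each list within 30 kb (circles) or 80 kb (squares) of the gene span, on a log axis, filled where one of the loci with that extension had a peak. HP GATA1 and HP GATA2, at 2.23% and 4.19% within 30 kb, are filled through Zfpm1 alone, and HB GATA2, at 0.781% within 80 kb, through Gata2.

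Other genes of the same system were counted in the same way, for HP GATA1 or HP GATA2 peaks within 30 kb, which 5.44% of coding genes had. Of 5 further members of the GATA and FOG families (Gata4, Gata5, Gata6, Trps1 and Zfpm2) only Gata6, an endoderm and heart factor, had a peak, of GATA2. Zfpm2, which encodes FOG2, the relative of FOG1 in the heart and gonads, had none. Of 11 partner factors 6 had a peak, namely Tal1, Lyl1, Cbfa2t3, Gfi1b, Runx1 and Nfe2, while Lmo2, Ldb1, Klf1, Fli1 and Spi1 had none. Of 9 known GATA1 target genes of red cells and megakaryocytes 4 had a peak. These were Alas2, the first enzyme of heme synthesis in erythroid cells, Epor, the erythropoietin receptor, Itga2b, which encodes CD41, and Gp1ba, a platelet receptor subunit. At Itga2b the peak was of GATA2 only. According to the study an element of Nfe2 was, like that of Zfpm1, a control region for GATA1 immunoprecipitation in HP. The part of this choice, and of thresholds chosen by eye at known genes, in these counts was not tested. These lists were drawn up with earlier results of the data known, and their counts are a description.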

How the data were processed

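According to the methods of the study, the authors aligned reads to mm10 with Bowtie, called peaks with MACS against the input of the same stage, chose each threshold by eye at known genes and centered peaks on refined summits. Versions of these tools: not given in the sources used here. Each deposited file held the chromosome, start and end of its peaks, other values than positions in base pairs being absent. All peaks were 400 bp wide, and their sequencing depth was not used here. Positions were read as BED intervals and are given 1-based. Overlap of at least 1 bp assigned peaks and merged regions. TSSs and coding genes came from RefSeq GRCm38, and a promoter was within 2 kb of a coding TSS. Clopper-Pearson 95% intervals cover counting error only. Consensus letters were searched on both strands in peaks and in 6618338 genome windows of 400 bp without unknown bases. Distances within peaks run between midpoints. One region at a time is described if held in at least 3 lists, with a GATA1 or GATA2 peak, or with a peak of MES, HB or HE, and some others at the same loci were added after their values were seen. The loci, gene lists and rules were chosen with earlier results of these data known. Python 3.11.15, NumPy 2.4.6, pandas 2.3.3, SciPy 1.17.1 and Matplotlib 3.10.9 were used, and the counting steps were tested on simulated data. The sequence and position of 1 Zfpm1 region with GATA peaks are not reported here, though its peaks are in the counts.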

Additional observations from a re-analysis of the deposited data

How the results depend on the processing

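No alternative extension or assignment of peaks gave an HP GATA1 or HP GATA2 peak at Gata1, Gata2 or Gata3. The values that moved by over 1.5 times include these. With 10 kb on each side Gata2 had 8 peaks of 3 lists, and with 30 kb it had 12 peaks of 3 lists. With 80 kb Gata1 had 13 peaks, and Gata3 had 27 peaks of 5 lists. By the nearest coding TSS Gata1 had 4 peaks, Gata2 had 12 peaks of 3 lists, and Gata3 had 45 peaks of 6 lists. Without MAC C/EBPβ and MAC PU.1, Gata1 and Gata3 had 1 list each. With AGATAA alone the HB GATA2 peak of Gata2 had 0 matches, and in the central 200 bp the HP RUNX1 peak had 0. Counting only coding genes of the same chromosome, chosen after seeing the data, some shares moved. For Gata1, shares with a peak were 3.22% (HP GFI1B), 46.2% (MAC C/EBPβ) and 52.6% (MAC PU.1), and 13.1% had as many MAC PU.1 peaks. For Zfpm1, shares with a peak were 4.79% (HP GATA1), 7.57% (HP GATA2), 22.3% (HP GFI1B) and 21.1% (HP RUNX1). Shares with as many peaks as Zfpm1 were 0.192% (HP GATA1), 0.288% (HP GATA2), 3.84% (HP PU.1) and 3.45% (MAC PU.1). Zfpm1 kept 7 lists with extensions of 10, 30 and 80 kb. No paired analysis was possible because each group held 1 list. Thresholds chosen per list, and depth not used here, limit every absence stated above.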

Other observations

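The order of peaks within a list is not explained in the files. The 4 HP GATA1 peaks of Zfpm1 stood between rows 1 and 215 of 250, 3 of them within the first 20, and the 4 HP GATA2 peaks between rows 19 and 331 of 530. When each list was split at its middle, the consensus letters of the factor were more frequent in the first part of 12 of the 13 lists with a consensus searched, with 74.5% against 48.1% for C/EBP in MES C/EBPβ and 92.0% against 88.8% for GATA in HP GATA1. The HB GATA2 list was the exception, with 43.8% in the first part and 56.2% in the last.

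With the wider extension of 80 kb, Lmo2 and Klf1 also had an HP GATA1 peak, so that 8 of the 11 partner factors had a peak of GATA1 or GATA2, against 10.2% of coding genes. The partner factors with a peak include Nfe2, the control region named above. Lmo2 encodes the bridging protein of the complexes that join TAL1 to GATA factors, and Klf1 an erythroid activator. Hba-a1, an adult alpha globin gene, was added among the target genes, which made 5 of 9.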
